A study of Arabidopsis thaliana with 16 samples.

Results

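Flower buds of the bhlh89,91 double mutant held 80 genes, of 33681 listed, that were higher in low light than in normal light while the same genes stayed level in Col-0 buds. The genes were chosen by their measured TPM, the transcript abundance of a gene scaled to its length and to the library total. On the log2 scale of the group mean plus 0.5 TPM, low light exceeded normal light by at least 1 in bhlh89,91, with the lowest low-light library above the highest normal-light library. The same difference in Col-0 lay between -0.5 and 0.5, and the mean in bhlh89,91 low light was at least 1 TPM. The light responses of these genes are therefore a description and carry no test.

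RNA came from whole buds whose anthers had not yet reached pollen mitosis I, in 4 groups of 4 biological replicates each. The groups were bhlh89,91 in low light, bhlh89,91 in normal light, Col-0 in low light and Col-0 in normal light. The mutant, in the Col-0 background, combines the T-DNA insertions SALK-123106 and GK-345C06, 1 insertion line for each gene, and the wild type is the Columbia ecotype Col-0. Shading nets lowered the photon flux to 53 ± 5 µmol m-2 s-1 in low light, against 205 ± 8.6 µmol m-2 s-1 (SD) in normal light, from just before bolting. Day length and temperature were the same for all groups.

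bHLH89, bHLH91 and their close relative bHLH10 are basic helix-loop-helix factors of the tapetum, the innermost anther layer, which feeds the microspores, supplies their wall material and then dies by programmed cell death. Plant cells also hold a set of rapidly induced genes, for ethylene response factors (ERFs), WRKY and zinc-finger factors, that answer wounding, touch, cold and microbial elicitors within a short time. Genes from a list of programmed cell death and from a list of rapid response stood among the 80 genes. Both lists were drawn up with earlier results of these data known. None of the 8 listed tapetum regulators was among the 80. With 0.36% of all tested genes among the 80, nothing is read from so short a list.

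Reads from both disrupted genes remained. By qRT-PCR in normal light the authors found both transcripts reduced much further in this mutant than the TPM values here. They place both insertions in the first exon, and TPM per gene does not show which part of a transcript the reads came from. bHLH89 averaged 15.7 ± 3.52 TPM in bhlh89,91 low light and 22.3 ± 2.57 TPM in bhlh89,91 normal light, against 29.6 ± 2.17 TPM in Col-0 low light and 45.9 ± 4.73 TPM in Col-0 normal light (SD, n = 4 each). Averaged over both light conditions, bHLH89 was lower in the mutant (log2FC -0.96, SE 0.09, edgeR adjusted p = 9.2e-07), as was bHLH91 by a smaller margin (log2FC -0.37, SE 0.08, edgeR adjusted p = 0.0016). bHLH91 averaged 17.1 and 22.8 TPM in bhlh89,91 low and normal light, against 22.2 and 30.1 TPM in Col-0 low and normal light. bHLH10, which carries no insertion here, averaged 59.5 and 82.8 TPM in bhlh89,91 low and normal light, against 56.0 and 82.7 TPM in Col-0 low and normal light. The libraries held between 20419619 and 23346158 estimated counts, and of the 80 genes 77 were among the 21309 that passed the expression filter.

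Within bhlh89,91, the difference between low and normal light ran from 1.01 to 5.98 over the 80 genes on the log2(mean TPM + 0.5) scale, with a median of 1.86. In Col-0 the same difference ran from -0.49 to 0.50, with a median of 0.05. In the count model, 72 of the 77 tested genes were DEGs in bhlh89,91 (higher in low light, adjusted p under 0.01 and log2FC of at least 1), against 2.18% of all tested genes. In Col-0 8.64% of all tested genes were DEGs in either direction, and the 80 genes were chosen to lack such a difference. Both values follow from the choice of the genes, and nothing is read from them. The count model gave 77-gene medians of 2.39 in bhlh89,91 and 0.06 in Col-0, beside medians of -0.0012 and -0.0072 over all tested genes.

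The genes were sorted by the gap between the genotypes in each light condition. In 45 genes bhlh89,91 was at least 1 higher than Col-0 in low light on the log2(mean TPM + 0.5) scale, and was not at least 1 lower in normal light. In 10 genes bhlh89,91 was at least 1 lower than Col-0 in normal light only, in 9 genes both held, and in 16 genes neither did. All 4 bhlh89,91 libraries lay above all 4 Col-0 libraries in low light for 37 of the 77 tested genes, beside 19.6% of all tested genes. In normal light all 4 bhlh89,91 libraries lay below all 4 Col-0 libraries for 21 of the 77, beside 10.8% of all tested genes. These gaps share libraries with the choice of the genes. The classes are bins at chosen limits, and nothing is read from any of these counts.

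**Figure D1:**
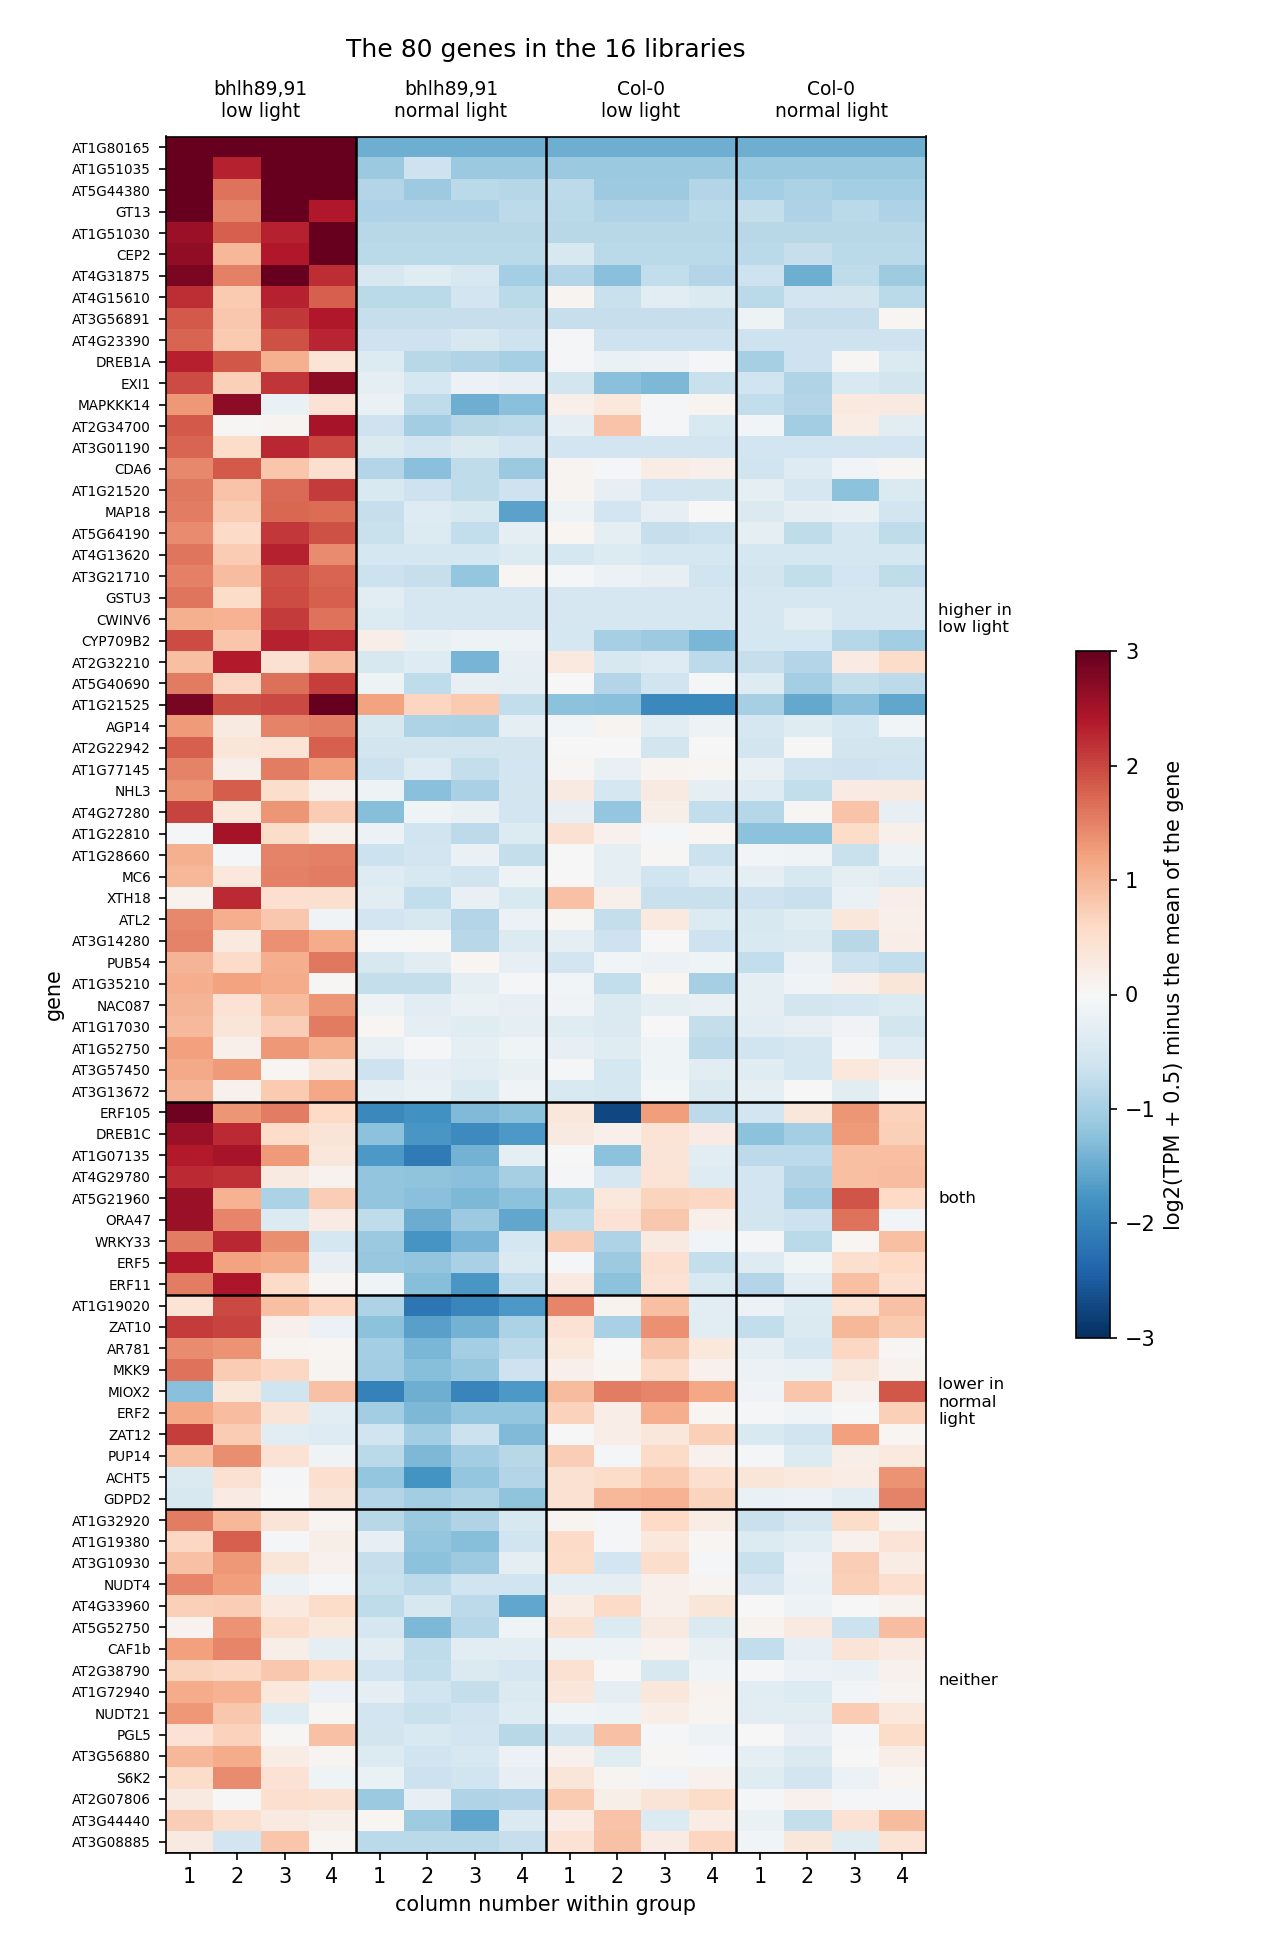
Each row is 1 of the 80 genes and each column 1 of the 16 libraries, in 4 groups of 4. Colour gives log2(TPM + 0.5) minus the mean of the gene over all libraries, and black lines part the 45, 9, 10 and 16 genes with a gap to Col-0 of at least 1 in low light, in both lights, in normal light or in neither. Column 2 of bhlh89,91 low light is the palest of its group in most of the upper block, and columns 1 and 2 are the darkest in most of the lower blocks.

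**Figure D2:**
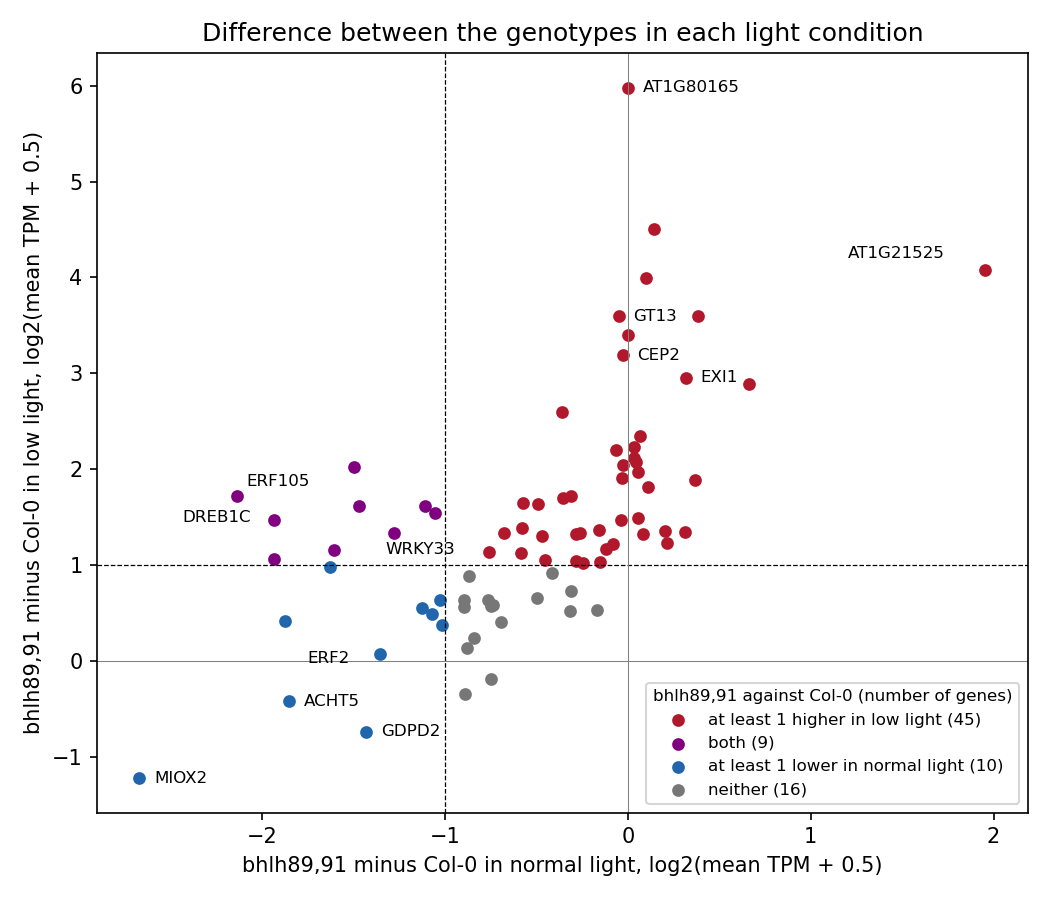
The difference between bhlh89,91 and Col-0 in normal light (horizontal) is plotted against that in low light (vertical), both on the log2(mean TPM + 0.5) scale, with 1 point a gene and dashed lines at -1 and 1. AT1G80165, at 5.98, is the highest point, AT1G21525 lies farthest right at 1.95, and MIOX2 lies lowest and farthest left at -1.22 and -2.67.

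The largest responses came from genes that were near zero outside bhlh89,91 low light. In 20 of the 80 genes the mean was under 0.5 TPM in each of the other 3 groups, and in 10 of these no library of those groups held more than 3 estimated counts. AT5G44380, of the FAD-binding berberine bridge enzyme family, had 8.67, 3.02, 12.8 and 10.7 TPM in bhlh89,91 low light and 0.12, 0.0302, 0.151 and 0.132 TPM in bhlh89,91 normal light. In Col-0 the same gene had 0.157, 0.0294, 0.0304 and 0.122 TPM in low light and 0.0594, 0.092, 0.0584 and 0.0594 TPM in normal light. Every bhlh89,91 low-light library thus stood far above the other 12.

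GT13, from the galactosyltransferase family that includes the xyloglucan enzyme MUR3, had 7.37, 2.13, 9.17 and 4.5 TPM in bhlh89,91 low light, against no more than 0.0433 TPM in any bhlh89,91 normal-light library. Its estimated counts ran from 54.1 to 223 in bhlh89,91 low light, which made it at least 48.0-fold higher than in bhlh89,91 normal light and at least 49.8-fold higher than in Col-0 low light, taking 3 counts per library as the floor. CEP2, a papain-type cysteine endopeptidase related to the tapetal protease CEP1, had 5.01, 1.24, 4.13 and 6.93 TPM in bhlh89,91 low light and 0 TPM in all 4 bhlh89,91 normal-light libraries. Its counts were at least 37.5-fold higher than in bhlh89,91 normal light. Among the 8 Col-0 libraries CEP2 reached 0.119 TPM in one low-light and 0.0387 TPM in one normal-light library and was listed at 0 in the others. CWINV6, named as a cell wall invertase but annotated by RefSeq as a fructan exohydrolase, had 0.989, 0.974, 2.56 and 1.71 TPM in bhlh89,91 low light, at least 16.6-fold above bhlh89,91 normal light. MC6, a metacaspase, had 1.16, 0.537, 1.87 and 1.91 TPM in bhlh89,91 low light, against means of 0.129 ± 0.0858 TPM in bhlh89,91 normal light, 0.172 ± 0.118 TPM in Col-0 low light and 0.144 ± 0.0404 TPM in Col-0 normal light (SD, n = 4 each).

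The single largest difference, of AT1G80165, rested on few reads. This short gene, annotated as a cotton fiber protein, had 36.5, 14.2, 36.9 and 36.6 TPM in bhlh89,91 low light and 0 in the other 12 libraries, but those values stand for 11.9 to 31.1 estimated counts, at least 8.57-fold above bhlh89,91 normal light. It overlaps GLYI7 on the opposite strand. The library kit as described keeps no strand, so reads from the stretch that both genes share cannot be told apart by strand. GLYI7 itself differed by 0.51 in bhlh89,91 and by 0.19 in Col-0 on the log2(mean TPM + 0.5) scale. The neighbours AT1G51030 and AT1G51035, both uncharacterized, moved as a pair. AT1G51035 had 9.77, 4.87, 8.85 and 20 TPM in bhlh89,91 low light, and AT1G51030 had 4.73, 2.57, 3.88 and 7.99 TPM there. AT1G51035 was listed at 0 in 11 of the other 12 libraries and AT1G51030 in all 12. The 2 genes share no 31-base word of sequence.

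In all 20 of these near-zero genes the lowest bhlh89,91 low-light library was column 2, against 27% of all tested genes. Some marker sums also set that library apart within its group, and others did not. Green tissue markers summed to 10661 TPM in column 2, within the 9649 to 11004 TPM of the other columns. Petal and stamen markers summed to 354 TPM there, within 330 to 402 TPM. The 7 late pollen markers, all tested, summed to 20.7 TPM in column 2 and to between 7.58 and 10.6 TPM in the other bhlh89,91 low-light columns, beside 9.03 to 13.8 TPM in bhlh89,91 normal light, 12.2 to 14.9 TPM in Col-0 low light and 11 to 28.2 TPM in Col-0 normal light. The 5 gynoecium and ovule markers summed to 70.6 TPM in column 2 and to between 89.9 and 101 TPM in the other 3, beside 66.8 to 74.1 TPM in bhlh89,91 normal light, 74.9 to 94.1 TPM in Col-0 low light and 51.6 to 55.7 TPM in Col-0 normal light. The 8 tapetum regulators were lowest in column 4, at 299 TPM, against 453 to 499 TPM in columns 1 to 3, beside 449 to 601 TPM in bhlh89,91 normal light, 292 to 332 TPM in Col-0 low light and 438 to 500.3 TPM in Col-0 normal light. Each of the 7, 5 and 8 markers was among the tested genes. The part of tissue makeup in these levels was not tested, and in whole buds fewer cells of a type and less RNA per cell cannot be told apart.

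Other genes of the low-light gap had a low but measurable level in every group. EXI1, a transcriptional marker of developmental cell death, had 5.16, 1.87, 5.94 and 8.86 TPM in bhlh89,91 low light and 0.709, 0.5, 0.785 and 0.726 TPM in bhlh89,91 normal light. In Col-0 it had 0.487, 0.11, 0.0675 and 0.407 TPM in low light and 0.461, 0.27, 0.559 and 0.496 TPM in normal light, so that bhlh89,91 was above Col-0 without overlap in low light. CYP709B2, a cytochrome P450, averaged 6.26 ± 2.52 TPM in bhlh89,91 low light and 1.2 ± 0.235 TPM in bhlh89,91 normal light, against 0.413 ± 0.237 TPM in Col-0 low light and 0.576 ± 0.184 TPM in Col-0 normal light (SD, n = 4 each). AT4G31875, uncharacterized, had 11.2, 4.22, 18.0 and 7.26 TPM in bhlh89,91 low light, against means between 0.365 and 0.628 TPM in the other groups. NAC087, a NAC factor that promotes cell death in the root cap, averaged 4.93 ± 1.31 TPM in bhlh89,91 low light and 1.88 ± 0.106 TPM in bhlh89,91 normal light, against 1.82 ± 0.224 TPM in Col-0 low light and 1.55 ± 0.184 TPM in Col-0 normal light (SD, n = 4 each).

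MAP18, a microtubule-destabilizing protein, averaged 6.82 ± 1.95 TPM in bhlh89,91 low light, against 1.1 to 1.75 TPM in the other group means. CDA6, a cytidine deaminase, had 6.93, 9.23, 4.37 and 3.37 TPM in bhlh89,91 low light and 0.98, 0.639, 1.1 and 0.751 TPM in bhlh89,91 normal light. Col-0 lay between these, at 2.41, 2.15, 2.68 and 2.52 TPM in low light and 1.31, 1.59, 2.07 and 2.28 TPM in normal light. AT1G21520 and the transcribed pseudogene AT1G21525, neighbours on one strand with no shared 31-base word, differed between the genotypes in unlike ways. AT1G21525 had 13.3, 6.71, 7.1 and 15.3 TPM in bhlh89,91 low light and 3.94, 2.51, 2.78 and 0.645 TPM in bhlh89,91 normal light, and no Col-0 library exceeded 0.457 TPM. AT1G21520 averaged 11.6 ± 3.96 TPM in bhlh89,91 low light and 2.08 ± 0.222 TPM in bhlh89,91 normal light, near the 2.70 ± 0.707 TPM of Col-0 low light and the 2.13 ± 0.665 TPM of Col-0 normal light (SD, n = 4 each).

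**Figure D3:**
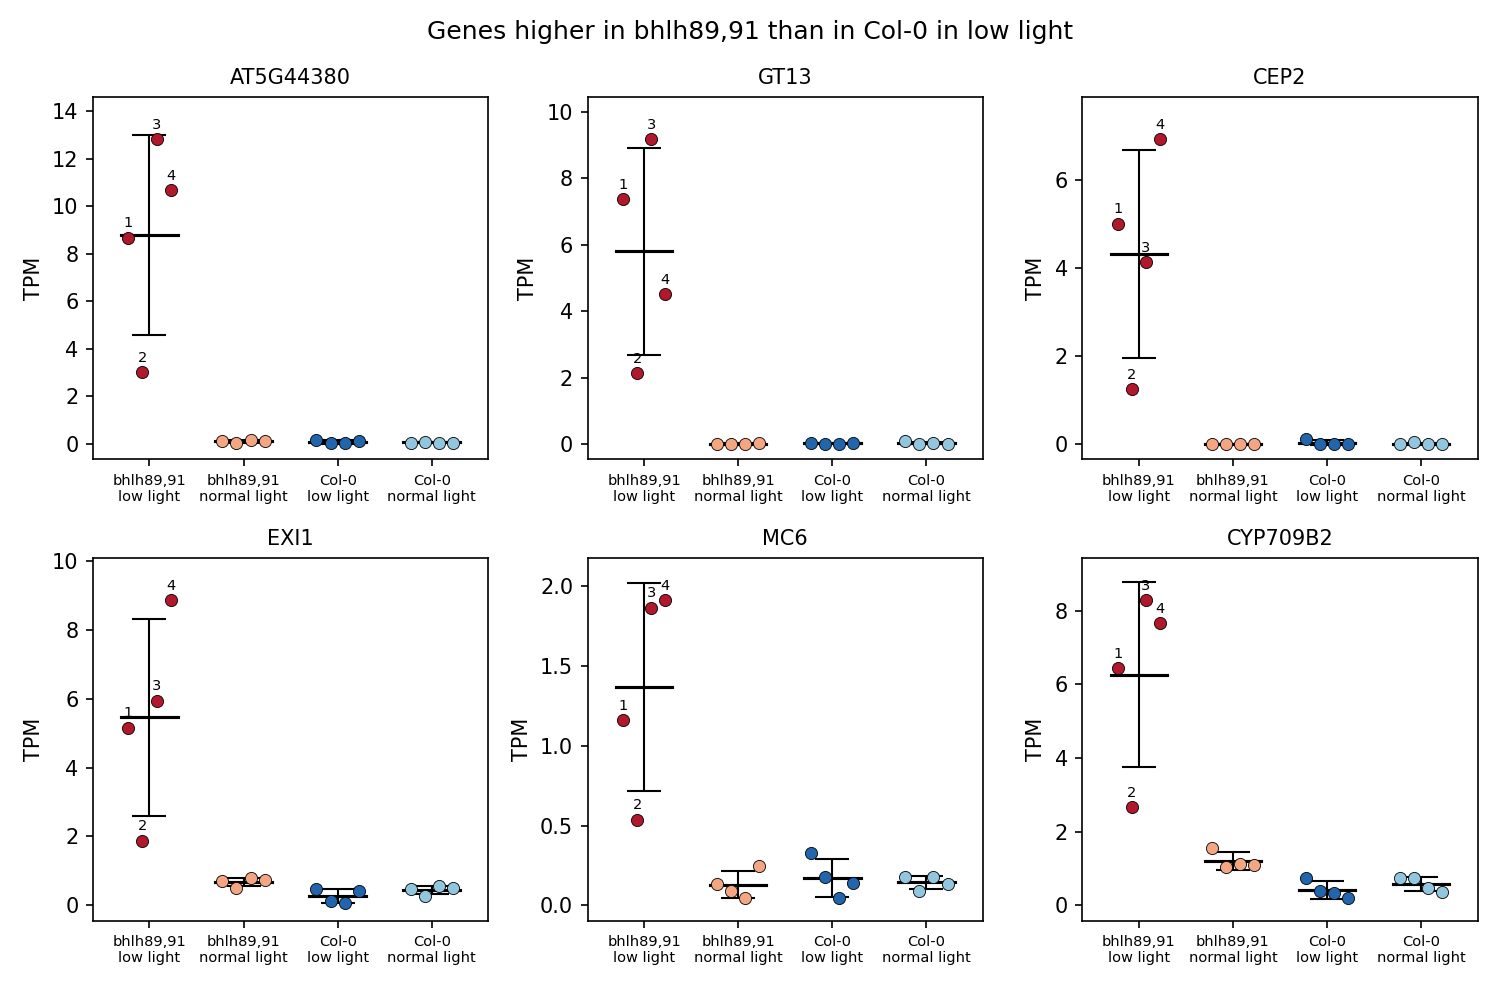
TPM of 6 genes in each library (points), with the group mean (bar) and SD (whiskers, n = 4), bhlh89,91 low light, bhlh89,91 normal light, Col-0 low light and Col-0 normal light from left to right. Digits give the column numbers in bhlh89,91 low light, where column 2 is the lowest point of every panel and still lies above the other 12 libraries.

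The second large class was formed by rapidly induced stress genes. Of the 42 tested genes on a list of rapid wound and elicitor response genes, 12 were among the 80 (28.6%), beside 0.36% of all tested genes. The list was drawn up with earlier results known, so this share is a description. ERF105, an ethylene response factor, had 48.8, 15.7, 18.4 and 9.33 TPM in bhlh89,91 low light and 1.2, 1.35, 2.11 and 2.28 TPM in bhlh89,91 normal light. In Col-0 it had 7.7, 0.483, 15.1 and 3.29 TPM in low light and 3.89, 7.68, 15.8 and 9.99 TPM in normal light. The mutant in normal light was thus below every Col-0 normal-light library, and in low light the genotypes overlapped. ERF105 overlaps AT5G51180 on the opposite strand, which differed by 0.21 in bhlh89,91 and by 0.35 in Col-0.

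DREB1C (also CBF2), a cold-induced factor of the AP2/ERF family, had 12.2, 9.51, 2.63 and 2.3 TPM in bhlh89,91 low light and 0.411, 0.138, 0.0685 and 0.148 TPM in bhlh89,91 normal light. Col-0 had 2.07, 1.88, 2.35 and 2.02 TPM in low light and 0.405, 0.558, 4.63 and 2.97 TPM in normal light, a wide spread that set columns 3 and 4 above columns 1 and 2. WRKY33, a regulator of defence against necrotrophic fungi and of camalexin synthesis, had 48.8, 81.4, 44.8 and 11.45 TPM in bhlh89,91 low light and 7.36, 4.54, 6.03 and 11.39 TPM in bhlh89,91 normal light, so its groups were parted by a narrow margin. Col-0 had 28.2, 8.52, 20.2 and 15.7 TPM in low light and 16.2, 9.29, 17.2 and 31.2 TPM in normal light. ZAT10, a zinc-finger repressor induced by salt and cold, had 25.5, 24.0, 6.21 and 4.82 TPM in bhlh89,91 low light and 2.07, 1.46, 1.74 and 2.63 TPM in bhlh89,91 normal light. Against these, Col-0 had 7.7, 2.55, 15.1 and 4.31 TPM in low light and 3.14, 3.94, 11.6 and 9.9 TPM in normal light.

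In each of the 12 genes the mean was highest in bhlh89,91 low light and lowest in bhlh89,91 normal light. The rule favours this order, since it asks for a rise in bhlh89,91 and a level Col-0, so nothing is read from it. Members outside the list, such as CDA6, AT1G07135 and AT4G29780, had the same order. MKK9, a MAP kinase kinase, averaged 21.7 ± 10.5 TPM in bhlh89,91 low light and 5.54 ± 1.26 TPM in bhlh89,91 normal light, against 13.7 ± 2.39 TPM in Col-0 low light and 11.8 ± 2.25 TPM in Col-0 normal light (SD, n = 4 each). NHL3, a plasma membrane protein of pathogen resistance, was the most abundant of the 12, with 219, 304, 124 and 95.9 TPM in bhlh89,91 low light and 78.0, 35.8, 43.9 and 58.3 TPM in bhlh89,91 normal light. ERF5, ERF11, ERF2, ZAT12, DREB1A and the RING-type ubiquitin ligase ATL2 had bhlh89,91 differences between low and normal light of 2.31, 2.28, 1.82, 1.76, 2.36 and 1.42 on the log2(mean TPM + 0.5) scale, and Col-0 differences of -0.41, -0.33, 0.39, 0.09, 0.33 and -0.09. Over the 12 genes, the median level relative to Col-0 normal light was 1.2 in bhlh89,91 low light, -1.12 in bhlh89,91 normal light and 0.01 in Col-0 low light. For many of them, meeting the limit on the Col-0 difference hung on single Col-0 libraries. ERF105, ERF5, ERF11 and ZAT10 no longer met it without column 3 of Col-0 low light, nor ERF2 without column 4. DREB1C, DREB1A and ZAT12 no longer met it without column 3 of Col-0 normal light.

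Replicates of the mutant in low light were far apart for this class. Column 4 was the lowest of the 4 bhlh89,91 low-light libraries in all 12 genes, and columns 1 and 2 were both above columns 3 and 4 in 11 of the 12 (ERF105 was the exception), against 19.3% of all tested genes. The summed TPM of the 46 genes of the rapid list in the files was 1501, 1888, 871 and 727 in bhlh89,91 low light and 460, 353, 396 and 521 in bhlh89,91 normal light, against 971, 567, 781 and 616 in Col-0 low light and 523, 469, 762 and 850 in Col-0 normal light. The near-zero genes, by contrast, were lowest in column 2, so the 2 classes did not share one ranking of the libraries. The part of harvest or handling in the spread was not tested.

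**Figure D4:**
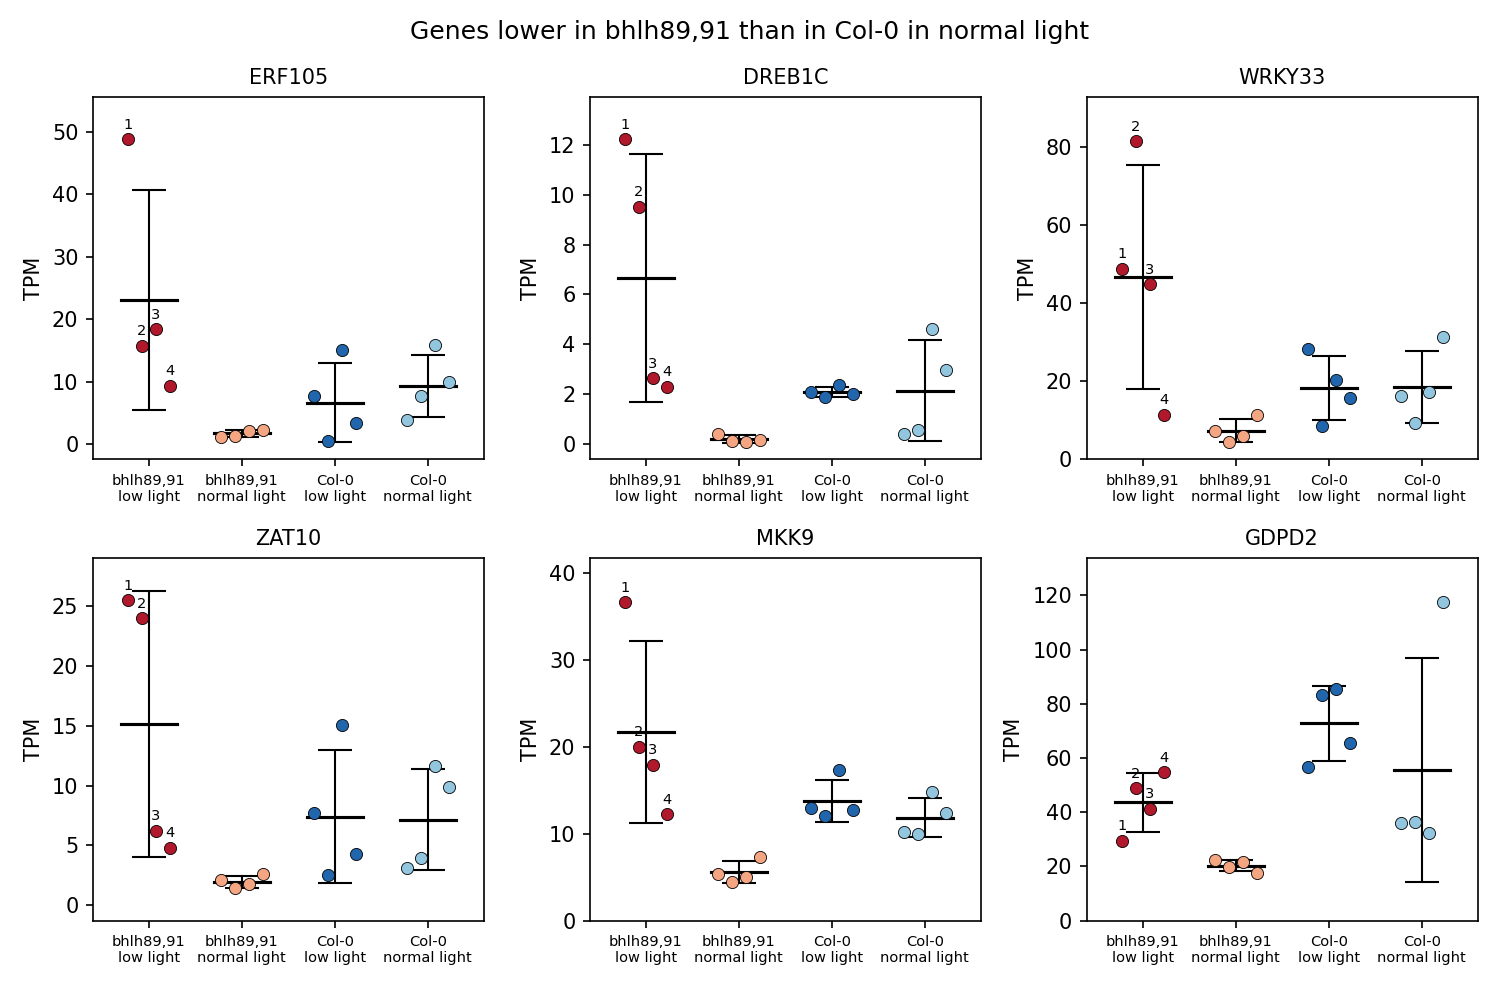
TPM of 6 genes in each library (points), with the group mean (bar) and SD (whiskers, n = 4), bhlh89,91 low light, bhlh89,91 normal light, Col-0 low light and Col-0 normal light from left to right. Digits give the column numbers in bhlh89,91 low light. In every panel the bhlh89,91 normal-light libraries form the lowest group by mean, and in GDPD2 a single Col-0 normal-light library at 117 TPM stands above the rest.

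The rest of the list was set beside the 12 genes. In the count model 30 of its 42 tested genes were DEGs in bhlh89,91, all higher in low light, with a median log2FC of 2.0 over the list. These include members chosen for that difference. Of the 30 genes outside the 80, 19 were such DEGs (63.3%), beside 2.18% of all tested genes. The list was drawn up with earlier results of these data known, so this share is a description and carries no test. In Col-0 4 of the 42 were DEGs higher and 2 lower in low light, with a median log2FC of 0.01, beside 5.86% and 2.78% of all tested genes. Of the 30 tested genes that were not among the 80, 19 still differed by at least 1 in bhlh89,91 on the log2(mean TPM + 0.5) scale. In 8 of these 19 the Col-0 difference was above 0.5, in 7 it was below -0.5, and in 8 the bhlh89,91 libraries of the 2 light conditions overlapped. WRKY40 stood just outside, with a difference of 3.96 in bhlh89,91 and -0.51 in Col-0, as did ERF6 with 3.26 and 0.53, ERF104 with 2.70 and 0.51, and SZF1 with 2.11 and -0.51.

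Other large differences came from genes outside the list, whose lowest bhlh89,91 low-light library was not always column 4. AT1G07135, a glycine-rich protein, had 86.7, 92.2, 40.1 and 20.8 TPM in bhlh89,91 low light and 4.62, 3.34, 5.79 and 13.5 TPM in bhlh89,91 normal light, against means of 14.4 ± 6.31 TPM in Col-0 low light and 20.2 ± 12.6 TPM in Col-0 normal light (SD, n = 4 each). AT4G29780, annotated as a nuclease, had 107, 103, 26.6 and 23.7 TPM in bhlh89,91 low light and 9.47, 9.3, 8.98 and 10.7 TPM in bhlh89,91 normal light, against 20.8 ± 6.29 TPM in Col-0 low light and 27.6 ± 16.7 TPM in Col-0 normal light. ORA47, an AP2/ERF factor of jasmonate synthesis, averaged 23.8 ± 21.6 TPM in bhlh89,91 low light and 3.48 ± 1.04 TPM in bhlh89,91 normal light, against 10.4 ± 4.38 TPM in Col-0 low light and 11.6 ± 10.7 TPM in Col-0 normal light (SD, n = 4 each). ORA47 overlaps AT1G74929 on the opposite strand, a more abundant gene that was higher in low light in both genotypes, by 1.52 in bhlh89,91 and 1.77 in Col-0. AT1G19020 was lowest in column 1 of bhlh89,91 low light. It had 5.67, 17.7, 8.18 and 6.72 TPM in bhlh89,91 low light and 1.96, 0.53, 0.695 and 0.902 TPM in bhlh89,91 normal light, while its Col-0 low-light values of 12.3, 4.46, 8.1 and 3.2 TPM overlapped those of bhlh89,91.

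The promoters of 4 genes are shown for matches to motifs of stress-responsive factors. Each is the 250 bases before the RefSeq gene start in TAIR10.1, read 5′ to 3′ on the strand of the gene. Capitals mark matches on either strand to the W-box TTGACC or TTGACT, which WRKY factors bind, to CGCGT, part of the rapid stress response element, and to GCCGCC, the GCC box of ERF factors. WRKY33 lies on the plus strand with its window at chr2:16107985-16108234, NHL3 on the minus strand at chr5:1931783-1932032, DREB1C on the minus strand at chr4:13016236-13016485, and CEP2, shown for the near-zero genes, on the plus strand at chr3:17897256-17897505.
WRKY33: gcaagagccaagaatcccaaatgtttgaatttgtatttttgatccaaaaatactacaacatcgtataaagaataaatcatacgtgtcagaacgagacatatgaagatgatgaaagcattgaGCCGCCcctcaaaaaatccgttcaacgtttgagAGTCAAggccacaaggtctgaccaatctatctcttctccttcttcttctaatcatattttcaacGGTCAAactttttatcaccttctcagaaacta
NHL3: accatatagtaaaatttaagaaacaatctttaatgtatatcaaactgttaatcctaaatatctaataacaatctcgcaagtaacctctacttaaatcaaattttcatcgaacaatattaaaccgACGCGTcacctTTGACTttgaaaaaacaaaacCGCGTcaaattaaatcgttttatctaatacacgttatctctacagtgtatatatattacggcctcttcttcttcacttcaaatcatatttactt
DREB1C: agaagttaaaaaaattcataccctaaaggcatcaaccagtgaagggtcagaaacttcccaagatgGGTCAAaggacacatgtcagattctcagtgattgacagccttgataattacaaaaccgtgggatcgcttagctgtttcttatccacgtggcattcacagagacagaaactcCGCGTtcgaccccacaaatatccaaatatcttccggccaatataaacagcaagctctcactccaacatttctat
CEP2: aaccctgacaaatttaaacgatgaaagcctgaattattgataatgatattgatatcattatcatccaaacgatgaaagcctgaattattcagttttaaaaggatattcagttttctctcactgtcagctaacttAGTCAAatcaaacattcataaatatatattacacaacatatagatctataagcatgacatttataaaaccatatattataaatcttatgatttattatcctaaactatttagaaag
WRKY33 held 2 W-box matches and 1 GCC box, NHL3 1 W-box match and 3 of CGCGT, of which 2 overlap as the strands of ACGCGT, DREB1C 1 of each, W-box and CGCGT, beside a CACGTG and an ACGTGGC that are not in capitals, and CEP2 1 W-box match.

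Over the 80 promoters, a W-box match was present in 33 (41.3%), against 27.4% of the 38092 promoters of the same length in the reference. CGCGT was present in 15 (18.8%), against 6.66%, and GCCGCC in 6 (7.5%), against 1.97%. The GCC box was in 4 of the 12 rapid response genes, but over all 42 tested genes of that list it was in 5 (11.9%). The E-box CANNTG, the general site of bHLH factors, was present in 47 (58.8%), against 55.9% of all promoters, and the G-box CACGTG in 6 (7.5%), against 5.37%. ACGTGGC, which overlaps the G-box in some promoters, was present in 3 (3.75%), against 2.72%. Over the 21143 promoters of tested genes the shares were 55.7% for CANNTG, 7.21% for CACGTG and 3.76% for ACGTGGC, near those of the 80. For the W-box, CGCGT and GCCGCC the shares of tested genes were 27.4%, 7.37% and 1.93%. CANNTG includes every CACGTG match. These are matches of letters and not sites.

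The means of MIOX2, ACHT5, GDPD2, AT3G08885 and AT2G07806 were below Col-0 in both light conditions. MIOX2, which oxidizes myo-inositol to glucuronic acid, had 12.5, 38.7, 19.7 and 56.4 TPM in bhlh89,91 low light and 7.06, 10.7, 7.35 and 8.75 TPM in bhlh89,91 normal light, against 58.9, 87.9, 83.8 and 68.0 TPM in Col-0 low light and 28.2, 54.2, 33.2 and 111 TPM in Col-0 normal light. The genotypes did not overlap in either light condition. ACHT5, an atypical thioredoxin of chloroplasts, had 49.2, 91.4, 63.8 and 93.7 TPM in bhlh89,91 low light and 29.4, 18.7, 29.3 and 35.8 TPM in bhlh89,91 normal light, against 90.9, 98.0, 115 and 94.6 TPM in Col-0 low light and 85.0, 81.5, 77.1 and 170 TPM in Col-0 normal light. GDPD2, a glycerophosphodiester phosphodiesterase, had 29.4, 48.9, 41.2 and 54.6 TPM in bhlh89,91 low light and 22.2, 19.7, 21.5 and 17.6 TPM in bhlh89,91 normal light, against 56.7, 83.1, 85.6 and 65.6 TPM in Col-0 low light and 35.8, 36.4, 32.4 and 117 TPM in Col-0 normal light. In low light ACHT5 overlapped Col-0. Column 4 of Col-0 normal light was the highest of its group in MIOX2, ACHT5 and GDPD2. Without that library MIOX2, GDPD2 and ERF2 no longer met the limit on the Col-0 difference. PGL5, a 6-phosphogluconolactonase of the pentose phosphate pathway and the one gene here from a list of 23 tested sugar starvation genes, had 149, 177, 112 and 200 TPM in bhlh89,91 low light and 75, 79.1, 72.9 and 61.6 TPM in bhlh89,91 normal light, within the range of Col-0 in low light.

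The difference between the genotypes averaged over both light conditions uses neither light response and was the one comparison tested. It still draws on the same 16 libraries. The limits of the rule on level and overlap used bhlh89,91 values that enter it. The p-values are therefore not independent of the choice of the genes. Of the 77 tested genes, 22 were higher in bhlh89,91 (28.6%), beside 23.7% of all tested genes, and 5 were lower (6.49%), beside 22.2% of all tested genes (edgeR quasi-likelihood test, adjusted p under 0.05 over 21309 genes). Of the 77, however, 24 passed the expression filter only through bhlh89,91 low light, the group chosen to be high, and their averages are a description. The other 53 passed in at least 1 library of another group. Of these, 12 were higher (22.6%), close to the share of all tested genes, and 5 were lower (9.43%).

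AT1G21525 had the highest average of the 53 (log2FC 4.55, SE 0.46, edgeR adjusted p = 2.2e-06), and it was higher in both light conditions, by 5.96 in low light and 3.15 in normal light. The size of these values rests on few Col-0 counts, at most 2.02 in low light and 3.01 in normal light. With 3 counts per library as the floor, AT1G21525 was at least 23.4-fold higher than in Col-0 low light. CYP709B2 followed (log2FC 2.51, SE 0.27, edgeR adjusted p = 4.1e-06), with log2FCs of 3.94 in low light and 1.08 in normal light. NAC087 was higher by 0.87 (SE 0.13, edgeR adjusted p = 6.7e-05). MAP18 and DREB1A had a positive difference in low light and a negative one in normal light. MAP18 averaged 0.75 (SE 0.23, edgeR adjusted p = 0.014), with log2FCs of 1.97 in low light and -0.47 in normal light. DREB1A averaged 0.80 (SE 0.31, edgeR adjusted p = 0.046), with log2FCs of 2.14 in low light and -0.54 in normal light, and its call was lost in 12 of the 16 fits that each left out 1 library. Among the 24 genes that give a description only, the averages of AT1G51035, AT5G44380, AT4G31875, EXI1 and MC6 were 5.17, 3.67, 2.75, 2.50 and 1.41.

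Among the genes called lower, the averages farthest below 0 were those of MIOX2 (log2FC -1.97, SE 0.33, edgeR adjusted p = 0.00017), ACHT5 (log2FC -1.13, SE 0.19, edgeR adjusted p = 0.0002) and GDPD2 (log2FC -1.09, SE 0.25, edgeR adjusted p = 0.0023). ERF2 was the one of the 12 rapid response genes called lower (log2FC -0.70, SE 0.22, edgeR adjusted p = 0.018).

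**Figure D5:**
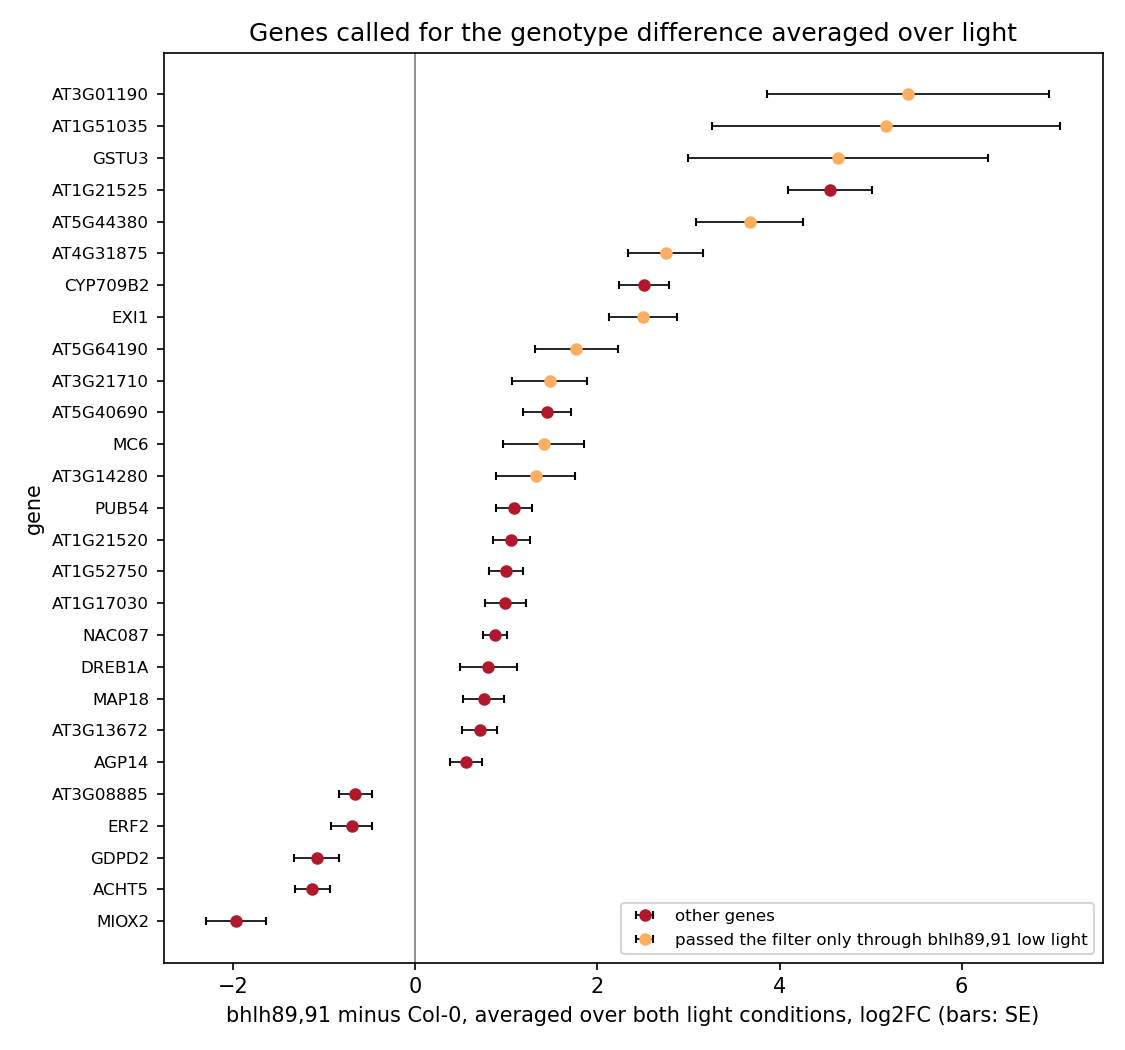
The log2FC of bhlh89,91 against Col-0 averaged over both light conditions (points, with SE as bars) for the 27 genes that passed the test, 22 higher and 5 lower. The 10 lighter points are genes that passed the expression filter only through bhlh89,91 low light and are a description, and MIOX2 at -1.97 is the lowest.

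Cell death genes were represented by CEP2, EXI1, MC6 and NAC087, 4 of 23 tested on a list of programmed cell death genes (17.4%). Of all tested genes 0.36% were among the 80. In bhlh89,91 7 of the 23 were DEGs higher in low light, with a median log2FC of 0.56, and these include members chosen for that difference. Of the 19 genes outside the 80, 3 were such DEGs (15.8%), beside 2.18% of all tested genes. That list too was drawn up with earlier results of these data known, so the share is a description. In Col-0 4 of the 23 were DEGs higher in low light, with a median log2FC of -0.19, beside 5.86% of all tested genes. CEP1, the cysteine endopeptidase of tapetal cell death, had 56.0, 17.0, 72.6 and 49.7 TPM in bhlh89,91 low light and at most 0.168 TPM in bhlh89,91 normal light. It was left out by its Col-0 difference of 0.99, which came from 1 Col-0 low-light library at 2.0 TPM, against 0.15 TPM or less in the other 3. The ethylene-forming oxidase ACO3 was left out by a Col-0 difference of 2.72, with 135, 54.2, 169 and 115 TPM in bhlh89,91 low light and 0.743 to 1.54 TPM in bhlh89,91 normal light. In Col-0 it had 54.7, 4.27, 6.66 and 9.77 TPM in low light, all above the 2.22 to 2.86 TPM of normal light. No gene of the jasmonate (28 tested), ethylene synthesis (8), strigolactone (9), abscisic acid (9), tapetum regulator (8), sporopollenin (9), meiocyte (5), late pollen (7), green tissue (5), xylem (7), endodermis (1), gynoecium and ovule (5), petal and stamen (2) or floral identity (3) lists was among the 80. CDA6, CWINV6 and GT13 were the single genes from the cytidine deaminases (4 tested), cell wall invertases (4) and xyloglucan galactosyltransferases (7). At the 0.36% of all tested genes, lists this short would mostly hold none of the 80, so nothing is read from those without a member.

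Genes on either side of each limit lay close together. Just inside the limit of 1 in bhlh89,91 lay AT3G08885 at 1.01 and AT3G44440 at 1.06, and just outside it LOX5 at 0.998 and CPK32 at 0.985. In Col-0, AT2G07806 lay inside at 0.497 and ERF104 outside at 0.505, and AT4G27280 lay inside at -0.491 and WRKY40 outside at -0.512. For the level in bhlh89,91 low light, AT2G22942 lay inside at 1.24 TPM and CIPK17 outside at 0.973 TPM. MAPKKK14 had the smallest gap between the light conditions, 0.980 TPM in its lowest low-light library against 0.978 TPM in its highest normal-light library. Within the 80, 19 genes overlap another gene in RefSeq, 16 of them one on the opposite strand, and 8 lie in 4 pairs with at most 2 genes between. DREB1C and DREB1A, one such pair, share 3.14% of their 31-base words, which leaves their split of reads uncertain there.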

How the data were processed

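Total RNA from whole buds was poly-A selected and sequenced as paired reads on a BGISEQ-500. The authors quantified transcripts with Salmon against AtRTD2 and summed them to genes with tximport (length-scaled TPM). They deposited estimated counts and TPM per gene and library, all 16 columns of which were used. The genome build was not given in the sources used here, so RefSeq TAIR10.1 served for names, overlaps and promoters, and all 80 loci matched. Columns are numbered 1 to 4 within a group, which are not the replicate numbers of the labels, so a column is tied to its group and not to a sample.

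The members and the gene lists were chosen with earlier results of these data known. Estimated counts were rounded, and the 21309 genes reaching 1 CPM in any library were fitted with edgeR 4.0.16 in R 4.3.3 (TMM factors 0.977 to 1.02, 1 mean a group, quasi-likelihood F test, Benjamini-Hochberg adjustment over all tested genes). Library totals of 20419619 to 23346158 limit precision for genes of few counts. Within-group correlations of libraries ran from 0.973 to 0.992, and no 2 libraries agreed within sampling noise (chi-square per gene at least 4.09). Each SE is the size of the log2FC over the root of its F value. A value on the log2(mean TPM + 0.5) scale understates differences of low genes. limma 3.58.1, DESeq2 1.42.0, other factors, filters and thresholds, pseudocounts, and leaving out each library were the alternatives. Genes named are, at a mean of at least 5 TPM in bhlh89,91 low light, the 20 with the largest difference and the 3 highest and 3 lowest called averages, every member on one of the 20 lists, genes at each limit of the rule, and bHLH89, bHLH91 and bHLH10. AT1G51030, CEP1, ACO3, ERF6 and the other list genes outside the rule, were added after their values were seen, as were the limit of 0.5 TPM for near-zero genes and the split by the group through which a gene passed the filter. Of 243 list entries, 2 were not used here.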

Additional observations from a re-analysis of the deposited data

Results flagged for a closer look

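In 13 of the 140 groups of 4 libraries examined for the 35 named genes, 1 library lay apart from the other 3 by more than Dixon's critical share of the range of the group. Chance alone sets about 1 group in 20 apart where values are normally distributed. That rate does not hold where all libraries but 1 are listed at 0, as in most of the near-zero groups below. AT1G80165 in bhlh89,91 low light had 14.2 TPM in column 2, against 36.5 to 36.9 TPM in the others. In Col-0 normal light, column 4 was apart for GDPD2 at 117 TPM (the others 32.4 to 36.4 TPM), for ACHT5 at 170 TPM (77.1 to 85.0 TPM) and for ERF2 at 11.2 TPM (6.09 to 6.53 TPM), and column 3 was apart for ORA47 at 27.5 TPM (5.29 to 8 TPM). CYP709B2 in bhlh89,91 normal light had 1.55 TPM in column 1 (1.04 to 1.11 TPM in the others).

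The other 7 were values near zero. In bhlh89,91 normal light these were 0.21 TPM for AT1G51035, 0.0433 TPM for GT13 and 0.0355 TPM for CWINV6. CEP2 had 0.119 TPM in one Col-0 low-light library. In Col-0 normal light, column 2 had 0.092 TPM for AT5G44380, 0.0387 TPM for CEP2 and 0.0728 TPM for CWINV6.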

How the results depend on the processing

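The number of genes met by the rule was 164 when the libraries of the 2 light conditions were allowed to overlap in bhlh89,91, 42 with the Col-0 limit at 0.25, and 48 with a minimum of 5 TPM. It was 74 and 79 with pseudocounts of 0.1 and 1 TPM, under which 61 of the 80 were kept in both, and 71 to 115 when 1 library was left out, with 42 kept in all 16 of these. Under the stricter limits of adjusted p below 0.01 with a log2FC of 1 or more in size, 10 genes were called higher and 3 lower in the genotype average. The count of higher genes ran from 17 to 32 over the other fits, and that of lower genes from 5 to 6, with 17 to 24 and 5 to 7 when 1 library was left out. limma-voom called 25 higher, of which 18 were among the 22. All these counts also draw on the 24 genes that passed the filter only through bhlh89,91 low light, and no count was made for the other 53 alone. For the 15 named genes that passed, no sign turned, and the call held in 115 of 119 other fits and in 213 of 240 that left out 1 library, the losses falling on AT1G51035, DREB1A, MAP18 and MC6. Among the 15, AT1G51035, AT5G44380, AT4G31875, EXI1 and MC6 give a description only. No paired analysis was possible because the numbers of the columns are not the replicate numbers of the labels. The labels call the 4 libraries of a group biological replicates and p-values measure the spread between them, the spread of rapid response genes among bhlh89,91 low-light libraries is wide, and near-zero genes rest on few counts.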
